A study of Homo sapiens with 6 samples.

Results

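Ribosome biogenesis and RNA polymerase I are followed here through 45 genes, listed by symbol as factors of the pathway, with earlier results of these data known. Each of the 45 symbols matched 1 row of the 60419 genes in the count table, and all 45 passed the filter on low counts that left 16395 genes for testing. The 45 genes are spread over 20 chromosomes. The cells were 12Z, a single immortalised line of human endometriotic cells (endometrium-type cells from outside the uterus), labelled as wild type. Myrrh cells received 100 µg/mL of an extract of myrrh, a tree resin, dissolved in DMSO for 12 h, and the control cells received DMSO. Both groups were grown in medium with 10% charcoal-stripped serum. Each group had 3 libraries, and nothing in the labels ties them to separate cultures. The p-values therefore rest on the spread between the libraries alone, which may be technical.

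Ribosomes are assembled in the nucleolus. RNA polymerase I copies the ribosomal DNA into a long precursor RNA, which small nucleolar RNPs (snoRNPs, complexes of a guide RNA with proteins) modify, and which the small subunit processome and a series of large subunit factors fold and cut into the mature rRNAs. The pathway is a main consumer of a growing cell's resources and is commonly turned down when growth stops, and the transcription factor MYC is known to drive many of its genes.

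The libraries held 22454783 to 27588151 estimated counts. Library pairs within a group correlated at 0.990 to 0.993 across genes on the log2 scale, and pairs between groups at 0.920 to 0.926. By this measure no library stood apart from its group, but DMSO replicate 2 was the highest in some short RNA rows given at the end. The epithelial keratins KRT8, KRT18 and KRT19 were expressed, while CDH1 and CLDN3, other epithelial markers, held at most 9 counts in any library and were not tested. Summed over the 6 tested of 8 epithelial markers, CPM (counts scaled to a common library size) was 1748 to 1837 in DMSO and 1224 to 1352 in Myrrh. Of these 4 were called lower, the keratins KRT8, KRT18 and KRT19 among them, and 2 were called higher, EPCAM and KRT7, both at low levels. Over 8 stromal markers, led by COL1A1 and VIM, the range was 9603 to 9872 in DMSO and 3135 to 3310 in Myrrh. Lower calls were made in 7 of the 8, and 1 was called higher (log2 fold change 0.25). Of 7 leukocyte markers 3 were tested, with sums of 33.9 to 34.7 and 51.3 to 63.6 CPM that were mostly CD68, which was called higher. The other tested leukocyte markers, PTPRC and CD14, were called lower, by 2.88 and 2.28 on the log2 scale, while CD3E was at 0 counts in all libraries. None of the 6 endothelial markers passed the filter, and CDH5 was at 0. The part of these markers in the results below was not tested. Mitochondrially encoded mRNAs took 13.5% ± 0.337 of the counts in DMSO and 4.69% ± 0.477 in Myrrh (SD, n = 3).

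Of the 45 genes, 43 were higher in Myrrh, none was lower, and 2 (FBL and POLR1C) were not called. A gene was called at a Benjamini-Hochberg adjusted p under 0.05, over all genes tested, in the quasi-likelihood test of edgeR. Of all genes tested, 39.3% were called higher by the same rule and 39.1% lower, 78.4% in either direction. Among the 9110 genes with a mean CPM in the range of the 45 genes, 51.4% were called higher. The median log2 fold change of the 45 genes was 0.82, against -0.02 for all genes tested and 0.16 for those 9110 genes. Values of the 45 genes ran from -0.05 for FBL to 1.68 for DDX21. A rise of at least 1.5-fold was called in 32 of the 45 genes, against 22.8% of all genes, and 16 rose at least 2-fold, against 11.3% of all genes. A fall of at least 1.5-fold was called in none of the 45 genes and in 27.1% of all genes. In 43 genes every Myrrh library lay above every DMSO library, a pattern that 40.1% of all genes showed, while in 40.2% every Myrrh library lay below.

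**Figure D1:**
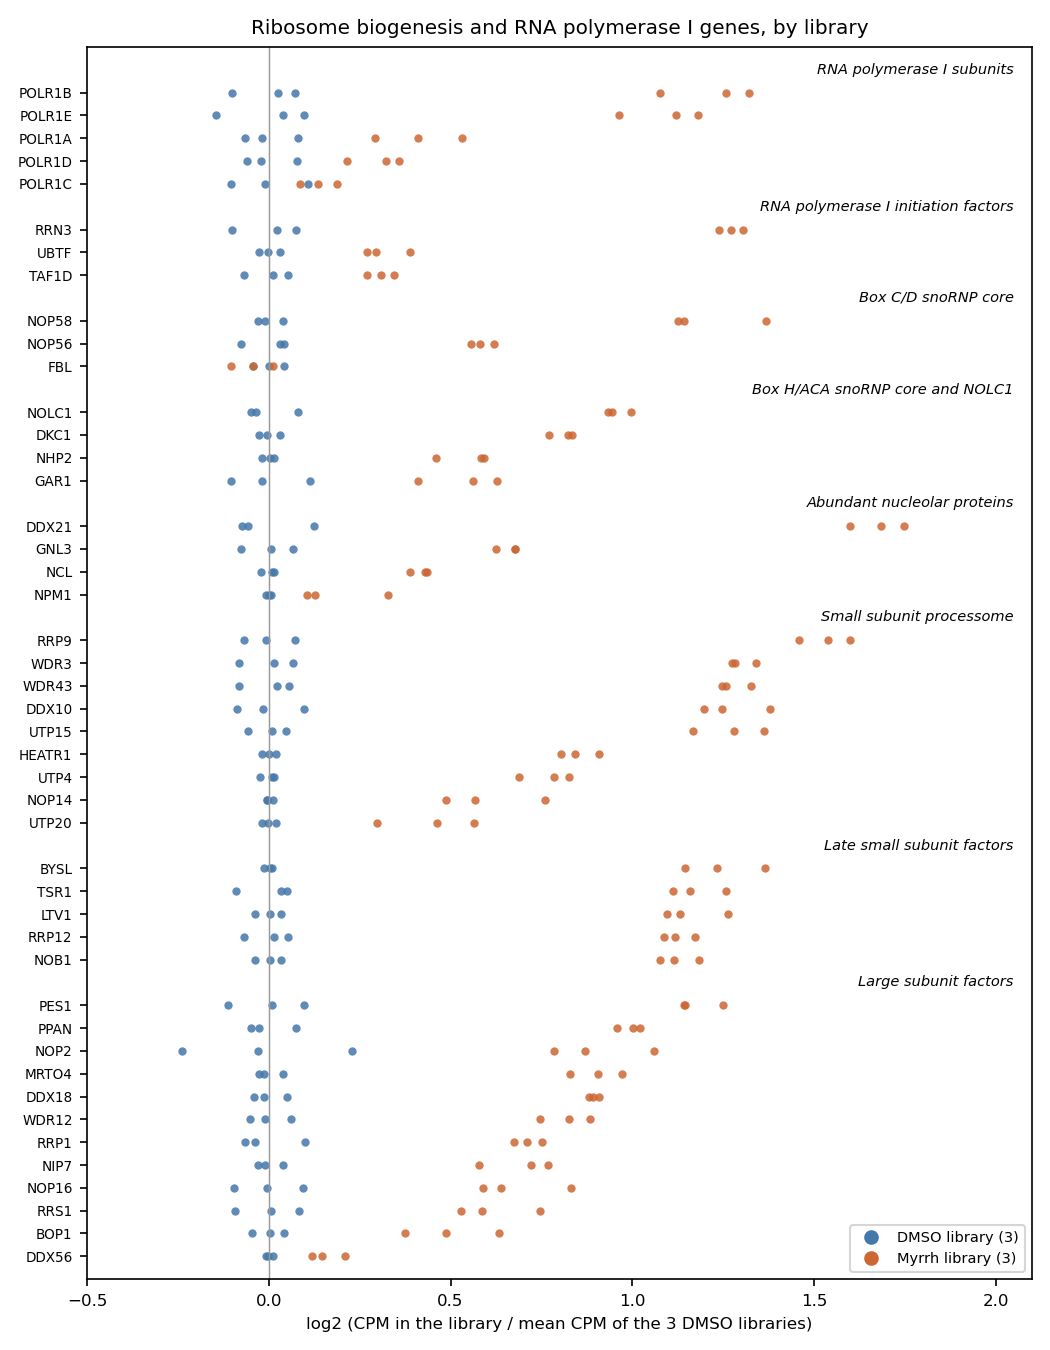
CPM of each of the 45 genes in each library, as the log2 ratio to the mean of the 3 DMSO libraries (horizontal axis), with genes grouped by role. The Myrrh points lie to the right of all DMSO points in 43 genes, and mix with them in FBL and POLR1C.

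Together the 45 genes took 0.364% ± 0.00205 of all counts in DMSO and 0.513% ± 0.00440 in Myrrh (SD, n = 3). Left without the mitochondrially encoded mRNAs in the total, the shares were 0.420% ± 0.00116 and 0.538% ± 0.00534, so the share was also higher in Myrrh when these were set aside. These shares are relative to the other RNAs of a library made from 1.5 µg of total RNA. They show neither the number of cells nor the amount of RNA per cell.

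RNA polymerase I has a core of subunits of its own and subunits that it shares with other polymerases. POLR1B, the second-largest subunit, measured 18.2, 19.8 and 20.5 CPM in the DMSO libraries and 46.7, 41.2 and 48.8 in the Myrrh libraries, a log2 fold change of 1.22 ± 0.07 (SE). POLR1E, a subunit that is known to take part in initiation, went from 9.34, 10.6 and 11.1 CPM to 20.2, 22.5 and 23.4, or 1.09 ± 0.09. The groups were far apart in both genes. POLR1A, the largest and catalytic subunit, rose less, from 45.6 ± 2.38 to 60.8 ± 5.06 CPM (SD, n = 3; log2 fold change 0.41 ± 0.06, adjusted p 1.58e-06 by edgeR). Among the 5 subunits listed here, those that RNA polymerase I shares with RNA polymerase III alone gave the lowest values. POLR1D was at 52.1, 55.8 and 50.7 CPM in DMSO and 61.3, 66.1 and 67.8 in Myrrh (0.30 ± 0.06). POLR1C was at 18.2, 19.8 and 17.1 CPM in DMSO and 20.2, 20.9 and 19.5 in Myrrh. The POLR1C groups overlapped, and the difference of 0.14 ± 0.08 was not called (adjusted p 0.104, edgeR). Scaled by library totals instead of TMM factors, POLR1C was at -0.01, and on the authors' TPM values it was called at 0.21.

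The factors that bring RNA polymerase I to its promoter were all called higher, but by different amounts. RRN3, which couples the polymerase to the promoter-bound factors and is known as the growth-regulated step, was at 49.0, 53.5 and 55.4 CPM in DMSO and 124, 130 and 127 in Myrrh. Its log2 fold change of 1.27 ± 0.05 was above that of 93.2% of all genes tested. UBTF, which binds along the ribosomal DNA, was at 57.2, 59.5 and 58.2 CPM and rose to 71.6, 70.4 and 76.4 (0.32 ± 0.05). TAF1D, a subunit of the selectivity factor SL1 and the host of several snoRNAs, rose by a similar amount, from 116 ± 4.93 to 144 ± 3.67 CPM (0.31 ± 0.05). Of 8 further RNA polymerase I genes listed outside the 45, 5 rose and 1 fell, with a median of 0.27. Among all genes tested, 39.3% were called higher and 39.1% lower. TAF1A and TAF1C, subunits of the same SL1 complex as TAF1D, were called in opposite directions. TAF1A rose by 1.21 ± 0.07, from 11.9 ± 0.627 to 27.4 ± 0.464 CPM, and TAF1C fell by 0.75 on the log2 scale, with an SE of 0.07, from 52.7 ± 1.93 to 31.4 ± 2.96 CPM. TCOF1, a nucleolar factor that supports ribosomal DNA transcription, rose by 0.63 ± 0.05.

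Box C/D snoRNPs methylate rRNA, and their core proteins did not move together. NOP58 was at 82.5, 78.6 and 79.6 CPM in DMSO and 177, 207 and 175 in Myrrh (1.22 ± 0.06), and its partner NOP56 was at 150, 149 and 138 and then at 218, 214 and 224 (0.59 ± 0.05). FBL, fibrillarin, is the methyltransferase of the same particle and lies at chr19:39834458-39846414 (GRCh38, minus strand). It was at 106, 100 and 103 CPM in DMSO and 96.1, 100 and 104 in Myrrh. The FBL groups overlapped, and its log2 fold change of -0.05 ± 0.05 was not called (adjusted p 0.41, edgeR). FBL was called lower with library totals (-0.19) and when 5 CPM was required in 3 libraries (-0.14). It stood at 0.02, not called, on the authors' TPM values.

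Box H/ACA snoRNPs convert uridines of rRNA to pseudouridine. DKC1, their pseudouridine synthase, rose from 70.6 ± 1.38 to 124 ± 2.85 CPM (SD, n = 3; 0.81 ± 0.05). The other core proteins here, NHP2 (0.55 ± 0.06) and GAR1 (0.54 ± 0.09), rose by about 1.46-fold and 1.45-fold. NOLC1, a phosphoprotein that escorts both classes of snoRNP, rose from 103 ± 5.14 to 200 ± 4.66 CPM (0.96 ± 0.05). Among 10 snoRNP genes outside the 45, listed as assembly factors though some encode core proteins, 9 rose and 1 fell. NUFIP1, a box C/D assembly factor, rose by 1.36 ± 0.07 and NAF1, which assembles box H/ACA particles, by 1.20 ± 0.11, while PIH1D1, of the R2TP assembly complex, fell by 0.42 on the log2 scale (SE 0.06).

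The genes listed as abundant nucleolar proteins include those with the highest level (NPM1) and the highest fold change (DDX21). DDX21 was not abundant among the 45 genes, at rank 22 by level in DMSO. Levels between genes are compared here in TPM (a library's share of transcripts, which takes transcript length into account), undone from the authors' log2 values. NPM1, nucleophosmin, was the highest of the 45 genes at 997 ± 34.6 TPM in DMSO and 1171 ± 41.1 in Myrrh, followed by NCL, nucleolin, at 358 ± 11.4 and 491 ± 18.5 (SD, n = 3). In CPM, NPM1 was at 760, 765 and 768 in DMSO and 822, 960 and 834 in Myrrh (0.19 ± 0.06, adjusted p 0.00519 by edgeR). Its Myrrh libraries all lay above the DMSO libraries, but 1 of them, replicate 2, was far above the others. Without that library the log2 fold change was 0.12 (adjusted p 0.0171, edgeR). The NPM1 call was lost with library totals (0.05) and with the filter of 5 CPM in 3 libraries (0.09). The table also lists 49 NPM1 pseudogenes, of which 17 had counts, so how its reads were shared out is uncertain. Together the pseudogenes held 415 to 717 estimated counts per library, against 17760 to 22055 for NPM1. NCL was at 693, 677 and 691 CPM and rose to 899, 925 and 929 (0.42 ± 0.05).

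DDX21, an RNA helicase that acts on RNA polymerase I transcription and snoRNAs, had the highest fold change of the 45 genes. It lies on chromosome 10 (chr10:68956128-68985073, GRCh38, plus strand) and has 15 exons in its longest coding transcript. It was at 82.2, 81.3 and 93.2 CPM in DMSO and 275, 259 and 287 in Myrrh, 3.20-fold higher (1.68 ± 0.06, adjusted p 1.17e-18 by edgeR). In TPM, DDX21 moved from rank 22 of the 45 genes in DMSO to rank 15 in Myrrh. GNL3, nucleostemin, a GTPase of the nucleolus, rose from 66.2 ± 3.25 to 105 ± 2.12 CPM (0.66 ± 0.05). NCL and NPM1 together made up 41.9% ± 0.174 of the counts on the 45 genes in DMSO and 33.2% ± 1.13 in Myrrh.

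**Figure D2:**
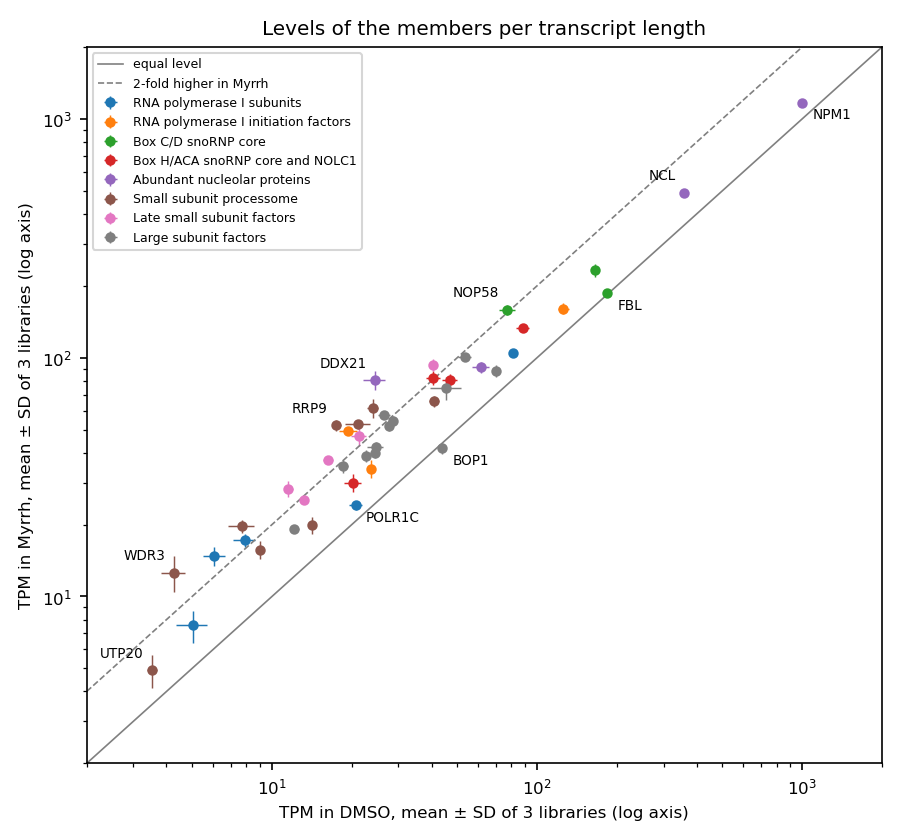
TPM of the 45 genes in DMSO (horizontal) and Myrrh (vertical), both on log axes, as means with SD over 3 libraries and coloured by role. RRP9, WDR3 and DDX21 lie above the dashed line of 2-fold, NPM1 and FBL near the line of equal level, and BOP1 just below that line.

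Levels spanned 3.53 ± 0.165 TPM for UTP20 to NPM1 at 997 in DMSO, and 44 of the 45 genes had a higher mean TPM in Myrrh. The order of levels was similar in both groups (Spearman's rho 0.95 across 45 genes). Across the 45 genes, the log2 fold change was lower where the DMSO level in TPM was higher (Pearson's r -0.46, Spearman's rho -0.43). These are descriptions, since the DMSO libraries enter both measures and genes are not independent replicates.

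The small subunit processome, which assembles on the rRNA as it is made, rose in all 9 genes, at a median of 1.27 on the log2 scale, and summed to 142 ± 5.57 TPM in DMSO and 305 ± 14.1 in Myrrh (SD, n = 3). RRP9, a protein of the U3 snoRNP that guides the first cuts, was at 17.8, 19.6 and 18.6 CPM in DMSO and 51.4, 54.3 and 56.7 in Myrrh, or 2.89-fold higher (1.53 ± 0.07). The groups did not overlap, and the RRP9 value was above that of 95.7% of all genes tested. WDR43, UTP15, UTP4 and HEATR1 belong to a subcomplex that is also known to act in RNA polymerase I transcription. Of these WDR43 (1.28 ± 0.05) and UTP15 (1.27 ± 0.07) rose more than HEATR1 (0.85 ± 0.05) and UTP4 (0.77 ± 0.05). WDR3, of the UTP-B subcomplex, rose 2.46-fold, from 31.8 ± 1.65 to 78.2 ± 2.02 CPM (SD, n = 3), and the helicase DDX10 rose by 1.28 ± 0.06 on the log2 scale. NOP14, a scaffold protein, was at 28.7, 28.4 and 28.4 CPM and rose to 42.3, 40.0 and 48.3 (0.61 ± 0.07). UTP20, a very large protein that joins the processome late, was the lowest of the class (0.45 ± 0.07).

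Late small subunit factors act as the particle leaves the nucleolus and matures in the cytoplasm. All 5 rose, within a narrow range of 1.13 to 1.25 on the log2 scale, and each at least 2-fold. BYSL, bystin, was at 13.8, 13.6 and 13.8 CPM in DMSO and 30.4, 32.3 and 35.5 in Myrrh (1.25 ± 0.07). TSR1, a GTPase-like factor (1.18 ± 0.05), LTV1, an export factor (1.17 ± 0.07), NOB1, the nuclease of the final 18S cut (1.13 ± 0.05), and RRP12, another export factor (1.13 ± 0.06), followed. Of 46 other small subunit factors, 43 rose and 1 fell, with a median of 0.69. PNO1, the partner of NOB1, rose by 1.95 ± 0.07, from 14.0 ± 0.505 to 54.0 ± 2.37 CPM, and the kinase RIOK2, which acts on the same cytoplasmic particle, by 1.54 ± 0.07. IMP3, a U3 snoRNP protein, fell by 0.72 on the log2 scale (SE 0.07).

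Large subunit factors rose in 12 of 12 genes, with a median of 0.76, and 1 of them rose at least 2-fold. PES1, BOP1 and WDR12 form the PeBoW complex, and their values differed. PES1 was at 33.1, 35.2 and 30.4 CPM in DMSO and 72.7, 72.8 and 78.3 in Myrrh (1.18 ± 0.06), and WDR12 rose by 0.82 ± 0.06. BOP1 was at 38.9, 39.9 and 37.6 CPM and rose to 50.3, 54.4 and 60.2 (0.50 ± 0.06, adjusted p 8.52e-08 by edgeR). In the authors' TPM, BOP1 was at 44.6, 44.3 and 42.8 in DMSO and 40.4, 40.4 and 44.5 in Myrrh, groups that overlapped, so its direction depends on the unit. The cause was not tested.

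PPAN (0.99 ± 0.07), which shares exons with a readthrough gene, MRTO4, which prepares the stalk of the subunit (0.90 ± 0.06), and the helicase DDX18 (0.89 ± 0.05) lay between PES1 and WDR12 in log2 fold change. RRP1 (0.71 ± 0.06), NIP7 (0.69 ± 0.06), NOP16 (0.69 ± 0.08) and RRS1, which brings in the 5S particle (0.62 ± 0.08), lay between WDR12 and BOP1. DDX56, another helicase, was at 74.9, 75.6 and 74.7 CPM and then at 83.0, 81.5 and 86.7 (0.16 ± 0.05, adjusted p 0.00657 by edgeR). The DDX56 call was lost with library totals (0.02) and with the filter of 5 CPM in 3 libraries (0.06). Of 48 other large subunit factors, 42 rose and 3 fell, with a median of 0.77. ZNF622, a late cytoplasmic factor, rose by 1.69 ± 0.06 and RSL1D1 by 1.64 ± 0.05, while HEATR3, which helps assemble the 5S particle, fell by 0.36 (SE 0.07) and DDX51 by 0.16 (SE 0.07) on the log2 scale.

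NOP2, an rRNA methyltransferase of the large subunit (chr12:6556863-6568691, GRCh38, minus strand), had the widest spread within groups. It was at 60.0, 71.8 and 51.9 CPM in DMSO and 112, 105 and 128 in Myrrh, and its SE of 0.15 around a log2 fold change of 0.91 was the largest of the 45 genes (adjusted p 0.00273, edgeR). The NOP2 call was lost with the replicate number as a block (adjusted p 0.051, edgeR). An overlapping row on the same strand, annotated in GENCODE as AC006064.6, runs from NOP2 into a neighbouring gene. It held 284.16, 33.07 and 457.7 estimated counts in DMSO and 415.93, 710.21 and 224.93 in Myrrh, and was high where NOP2 was low within each group. Both rows have fractional counts, and their sum was a whole number (within 0.005) in every library, from 1710 to 3087. The summed rows were at 71.1 ± 2.37 CPM in DMSO and 135 ± 4.85 in Myrrh (SD, n = 3), against 61.2 ± 9.99 and 115 ± 11.4 for NOP2 alone. With the rows summed, a choice made after the values were seen, the log2 fold change was 0.92 ± 0.05.

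**Figure D3:**
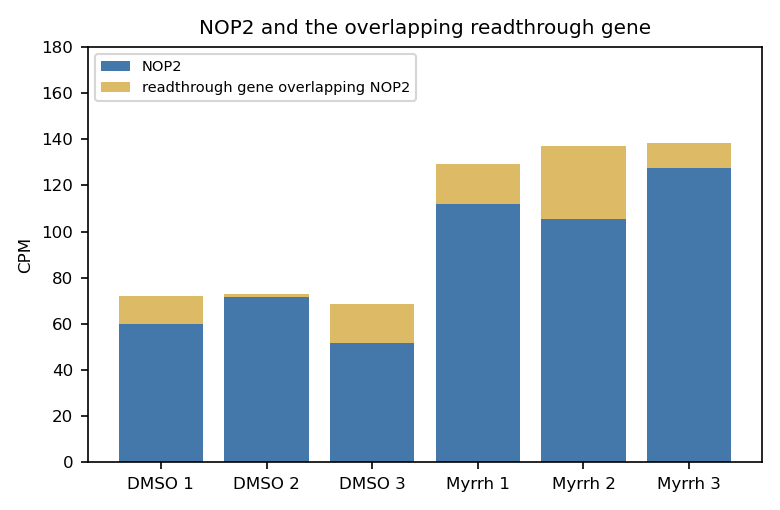
CPM of NOP2 (blue) and of the readthrough gene that overlaps it (yellow), stacked, in each of the 6 libraries. The stacked heights within a group are close (71.1 ± 2.37 in DMSO and 135 ± 4.85 in Myrrh), while the blue parts vary.

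In the 4 lists of other ribosome biogenesis genes (RNA polymerase I, small subunit, large subunit and snoRNP assembly), 99 of 112 genes rose and 6 fell, and the median was 0.69. Of all genes tested, 39.3% were called higher and 39.1% lower. The other nuclear RNA polymerases serve for comparison, since they share subunits with RNA polymerase I. Of 21 RNA polymerase III genes 16 rose and 2 fell, with a median of 0.63. POLR3C rose from 20.2 ± 0.640 to 91.1 ± 2.07 CPM (2.17 ± 0.06) and POLR3D by 1.70 ± 0.07, while POLR3GL fell by 0.64 (SE 0.07) and GTF3C2 by 0.15 (SE 0.06) on the log2 scale. Of 12 RNA polymerase II subunits, some of which serve all 3 polymerases, 2 rose and 4 fell, with a median of 0.02. The higher ones were POLR2C (1.22 ± 0.05) and POLR2D (0.52 ± 0.06), and POLR2L (-0.95 ± 0.06) and POLR2F (-0.30 ± 0.08) were among the lower. POLR2L and POLR2F are subunits of all 3 polymerases, RNA polymerase I included. The difference between the lists was not tested.

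**Figure D4:**
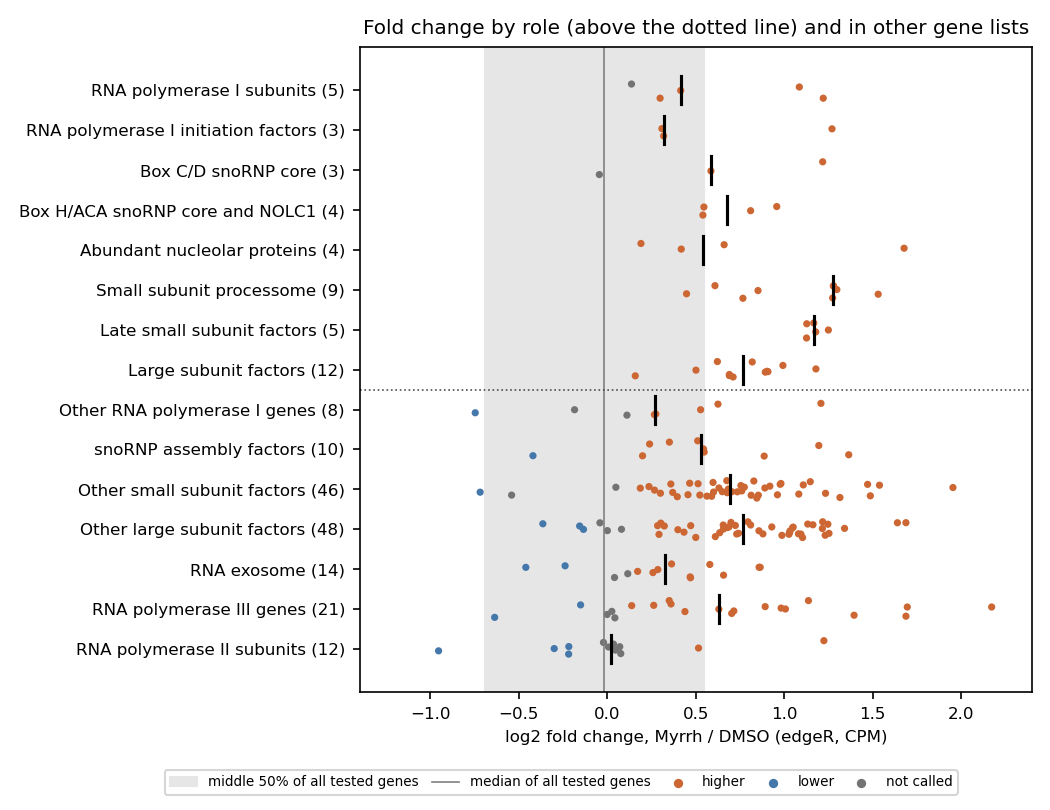
Log2 fold change (Myrrh against DMSO) of each gene, by role for the 45 genes (above the dotted line) and in 7 other lists, with list medians as black bars and the middle 50% of all tested genes shaded. The medians of both small subunit roles (1.27 and 1.17), the large subunit factors (0.76) and both snoRNP cores (0.59 and 0.68) lie beyond the shaded band. Among the other lists, those of the small subunit (0.69), large subunit (0.77) and RNA polymerase III genes (0.63) also lie beyond it. The medians of the RNA polymerase I subunits (0.41), RNA polymerase I initiation factors (0.32) and abundant nucleolar proteins (0.54) lie inside the band. So do those of the other RNA polymerase I genes (0.27), snoRNP assembly factors (0.53), RNA exosome (0.32) and RNA polymerase II subunits (0.02). For the 9110 genes with a mean CPM in the range of the 45 genes, the middle 50% (not drawn) ran from -0.34 to 0.62. That range holds the box C/D median of 0.59.

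MYC itself was at 45.5 ± 2.08 CPM in DMSO and 135 ± 5.51 in Myrrh (SD, n = 3; log2 fold change 1.57 ± 0.05). Since many genes of the pathway moved together, their promoters were searched for short motifs. RefSeq promoter windows (GRCh38.p14, 250 bases before to 50 after the gene's start) matched 38 of the 45 genes by symbol; POLR1E, NOP58, NOLC1, RRP12, RRS1, BOP1 and DDX18 had no entry. The E-box CACGTG, the binding motif of MYC-MAX and related factors, reads the same on both strands. It was in 11 of the 38 windows (28.9%), in 29 of 95 windows of the other ribosome biogenesis genes (30.5%), in 9.91% of the 11438 windows of tested genes, and in 7.26% of all 35116 windows. The 3 genes shown are those with an E-box and the highest fold change, RRP9 (chr3:51941855-51942154, minus strand), WDR43 (chr2:28894417-28894716, plus strand) and BYSL (chr6:41921249-41921548, plus strand). Each is given 5′ to 3′ on the gene's strand with motif matches in capitals, the E-box in all 3 and CCGGAAG, a core of ETS factor sites, in RRP9.
RRP9: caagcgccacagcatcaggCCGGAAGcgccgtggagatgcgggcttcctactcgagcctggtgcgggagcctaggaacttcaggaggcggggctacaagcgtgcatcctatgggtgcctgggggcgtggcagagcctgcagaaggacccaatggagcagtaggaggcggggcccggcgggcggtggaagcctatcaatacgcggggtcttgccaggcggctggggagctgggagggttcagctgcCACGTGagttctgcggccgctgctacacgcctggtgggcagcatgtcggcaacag
WDR43: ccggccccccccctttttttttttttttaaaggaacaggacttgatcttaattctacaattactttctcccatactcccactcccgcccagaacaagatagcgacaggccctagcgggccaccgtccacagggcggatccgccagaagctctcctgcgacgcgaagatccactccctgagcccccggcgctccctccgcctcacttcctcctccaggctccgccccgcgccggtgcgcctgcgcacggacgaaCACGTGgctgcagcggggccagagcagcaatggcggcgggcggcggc
BYSL: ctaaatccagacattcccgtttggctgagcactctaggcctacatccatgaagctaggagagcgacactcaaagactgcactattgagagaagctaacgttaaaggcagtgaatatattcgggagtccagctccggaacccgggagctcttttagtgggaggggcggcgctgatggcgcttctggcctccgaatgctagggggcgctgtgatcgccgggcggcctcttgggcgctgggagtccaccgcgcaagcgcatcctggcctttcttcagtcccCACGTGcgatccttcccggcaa
The E-box starts 5 bases before the start site in RRP9, and at base 4 and base 29 after it in WDR43 and BYSL.

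In all 11 genes the E-box lay close to the start site, from 16 bases before it in UTP4 to base 36 after it in NOP2. This stretch was set from the 11 genes themselves. An E-box in the same stretch was found in 16 of the 29 windows of other ribosome biogenesis genes that held one (55.2%), and in 20.4% of the 1134 windows of tested genes that held one. Of the 38 genes with a window, the 11 with an E-box had a median of 0.91 (log2 fold change), and those without one of 0.69. The 7 genes with no entry are in neither group, and their values ran from 0.50 (BOP1) to 1.22 (NOP58). FBL, which was not called, also holds an E-box, and DDX21, with the highest value, holds none in this window. A match describes the sequence and does not show that a factor binds there.

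**Figure D5:**
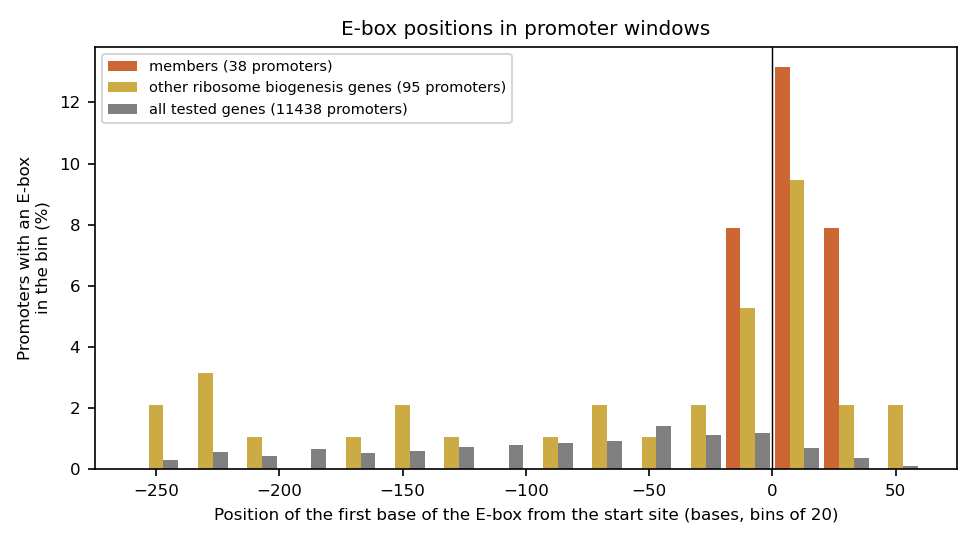
Share of promoter windows (percent, vertical) with an E-box whose first base falls in each bin of 20 bases from the gene's start (horizontal), for 38 of the 45 genes, 95 other ribosome biogenesis genes and 11438 tested genes. The bars of the 45 genes lie within 1 to 2 bins of the start site, and those of all tested genes are spread over the window.

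CCGGAAG, searched on both strands, was in 39.5% of the 38 windows, in 44.2% of the 95 windows of other ribosome biogenesis genes, and in 18.8% of those of tested genes. Among the 38 genes, the median log2 fold change was 0.77 with this motif and 0.81 without. TGACGTCA, the cAMP response element, was in the windows of DDX10 and RRP1 (5.26% of the 38, against 3.23% of tested genes and 4.21% of the other ribosome biogenesis genes). GAANNTTC, a core of heat shock elements, was in that of POLR1A (2.63% of the 38, against 4.67% of tested genes), and TGATGNAA, a core of ATF4 sites, was in none of the 38 and in 1.71% of tested genes.

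Of the 45 genes, 10 hold 1 or more annotated snoRNA or scaRNA genes within their bounds (GENCODE 29), against 1.68% of all tested genes. They are TAF1D with 8, GNL3 with 6, NOP56 with 5, NOP58 with 4, NCL and WDR43 with 3, DKC1, TSR1 and PPAN with 2, and POLR1C with 1. Their median log2 fold change was 0.74, and that of the 35 others 0.85. In 18 of the 45 genes an exon overlaps one of a gene on the opposite strand, and no source used here says whether counting used the strand, so reads of such partners cannot be told apart. Fractional counts (further than 0.005 from a whole number), a mark of reads shared with another gene, were present in at least 1 library for 18 genes and in all 6 libraries for 9, NOP2, NOP58, PPAN and TSR1 among them.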

How the data were processed

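RNA of 12Z cells was sequenced in 3 DMSO and 3 Myrrh libraries, made from 1.5 µg of total RNA with a TruSeq kit, per the labels' protocols. The authors deposited estimated counts per gene, not scaled between libraries, and log2(TPM + 1) values. The submitters' processing notes name STAR, RSEM 1.3.1 and GRCh38; no source used here gives the annotation release or the strandedness. In each library 11.1% to 12.2% of the deposited estimated counts were not whole numbers (further than 0.005 from one, the tolerance used throughout).

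Counts were rounded, filtered with filterByExpr and scaled with TMM factors (0.933 to 1.05). Myrrh was compared with DMSO with edgeR 4.0.16 (R 4.3.3; glmQLFit with robust estimation, two-sided quasi-likelihood F-test, no block) over 16395 genes, with Benjamini-Hochberg adjustment and a threshold of 0.05. Each SE is the size of the log2 fold change over √F. The test was also run on 5 simulated sets with 200 of 16395 genes changed. Since 78.4% of genes were called in the data, these sets do not check the test under so broad a change. Alternatives used DESeq2 1.42.0, limma 3.58.1 on the deposited log2 values, glmTreat, other filters and scalings, a replicate block, and each library left out.

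The 45 genes, their roles, the other lists and the motifs were chosen with earlier results of these data known. In each other list, the genes named are up to 2 called genes with the highest and 2 with the lowest fold change, and MYC. Positions and overlaps are from GENCODE release 29 on GRCh38. Depth was 22454783 to 27588151 counts per library.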

Additional observations from a re-analysis of the deposited data

How the results depend on the processing

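The number of the 45 genes called higher (43) was between 41 and 43 in every alternative but glmTreat against a log2 fold change of 0.5, which called 32. Of all genes tested, 39.3% were called higher in the main fit, 32.8% with library totals and 42.4% with 5 CPM in 3 libraries. The share was 23.2% with no filter on low counts and 21.2% with glmTreat. Scaled by library totals, 1 gene, FBL, was called lower and the median of the 45 genes was 0.68. That scaling moved the median of all genes from -0.02 to -0.16, and the median of the 45 genes lay 0.84 above it under both. The same margin was 0.71 with at least 5 CPM in 3 libraries, 0.72 with limma on log2(TPM + 1) and 0.97 with no filter on low counts. With at least 5 CPM in 3 libraries 1 gene, FBL, was called lower and the median was 0.72. POLR1C was at -0.0057 with library totals, and limma on log2(TPM + 1) gave FBL 0.023 and BOP1 -0.072. Other ribosome biogenesis genes called lower numbered 2 with glmTreat, against 6; only genes beyond 0.5 can be called there. Leaving out 1 library at a time changed no call of the 45 genes in 6 fits, and the median stayed between 0.81 and 0.86.

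With the replicate number as a block, 42 of the 45 genes were called higher (median 0.82). NOP2 kept a log2 fold change of 0.91, with an adjusted p of 0.051 by edgeR against 0.00273 without the block. Same-numbered libraries did not deviate together (correlations of -0.06, -0.0045 and 0.04). With 3 libraries per group this cannot exclude pairing, and the labels do not say whether the numbers pair the libraries. DESeq2 called 43 of the 45 genes higher. Depth limits few values here, since the gene with the lowest mean CPM in DMSO, POLR1E, held over 200 counts in each library.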

Other observations

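The RNA exosome, which trims the ends of the rRNAs and degrades their spacers, moved both ways. Of 14 exosome genes 10 were called higher and 2 lower by edgeR, with a median log2 fold change of 0.32. The shares over all genes tested were 39.3% higher and 39.1% lower. EXOSC1, of the cap of the complex, and EXOSC4, of its ring, rose by 0.86 ± 0.07 and 0.86 ± 0.08 (SE), while EXOSC10, its nuclear 3′ nuclease, fell from 140 ± 0.362 to 101 ± 1.74 CPM (SD, n = 3; log2 fold change -0.46 ± 0.05), and EXOSC9 was at -0.24 ± 0.06. Among 6 regulators of ribosomal DNA transcription, LYAR (1.24 ± 0.07) rose beside MYC, and SUV39H1, a histone methyltransferase of silent chromatin, fell (-0.26 ± 0.07). Of the remaining regulators, named after their values were seen, MYBBP1A was called higher (0.63 ± 0.06), and SIRT7 (-0.07) and BAZ2A (-0.08) were not called.

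Rows for short RNAs, among them RNAs on which these proteins act, varied between libraries of the same group. The 3 rows of 5.8S rRNA with counts, which hold equal values, summed to 36, 1293.75 and 106.5 estimated counts in the DMSO libraries and to 461.25, 217.5 and 92.25 in the Myrrh libraries. SNORD3A, a U3 snoRNA gene whose RNA is bound by RRP9, held 11.76, 491.54 and 19.24 counts in DMSO and 101.23, 126.13 and 15.0 in Myrrh. RPPH1, the RNA of RNase P, was at 5, 201.46 and 21 and at 60.21, 34.75 and 11. In each of these rows DMSO replicate 2 was the highest library, while none of the 45 protein-coding genes lost or gained a call without it. Whether these rows reflect the cells or the capture of short RNAs without poly(A) tails was not tested.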
